A study of Arabidopsis thaliana with 36 samples.

Results

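The 10 Arabidopsis thaliana genes described here encode the 5 alternative oxidases of the species (AOX1A, AOX1B, AOX1C, AOX1D and AOX2), 3 alternative NAD(P)H dehydrogenases (NDB2, NDA1 and NDA2) and a pair of mitochondrial stress proteins (UPOX and OM66). They were taken by locus from the 32833 loci listed in both count tables, and all 10 are listed in both. They were picked because AOX1A stood differently in the triple transporter mutant stp1/4/13 and in the wild type Col at 2 h and 24 h, so levels in that contrast are given as a description and were not tested. Differences of AOX1A from fls2 at 2 h and 24 h use the same Col and stp1/4/13 libraries that entered this choice, so their p-values are not given.

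Alternative oxidase sits in the inner mitochondrial membrane and passes electrons from ubiquinol straight to oxygen, past the proton-pumping complexes of the cytochrome pathway. Electrons reach it from complexes I and II and from type II NAD(P)H dehydrogenases, which pump no protons: NDA1 and NDA2 face the matrix, and NDB2 faces the space between the membranes. When mitochondrial electron flow is blocked, the membrane-tethered transcription factor ANAC017 and its target ANAC013 induce AOX1A, NDB2, UPOX, OM66 and other genes of the mitochondrial dysfunction stimulon, many of which carry a motif called the mitochondrial dysfunction motif. UPOX is used as a marker of oxidative stress, and OM66 is an ATPase of the outer mitochondrial membrane linked to salicylic acid and cell death.

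Whole seedlings were sampled as strand-specific 3′ digital gene expression libraries, in 12 groups of 3 libraries, from 3 independent trials. They were grown on agar with 25 mM sucrose, moved to liquid medium at 6 days and treated 1 day later. In the flg22 experiment the medium held 25 mM sucrose, and Col, stp1/4/13 and fls2 seedlings were harvested 2, 10 and 24 h after 1 µM flg22. This peptide of bacterial flagellin is perceived by the receptor kinase FLS2, which fls2 lacks. STP1, STP4 and STP13, the genes mutated in stp1/4/13, encode hexose-proton symporters of the plasma membrane. The labels do not name the alleles. The other 3 groups were Col seedlings at 24 h without flg22. Their titles read Suc_0mM, Suc_25mM and 2DG_1mM, where 2DG is 2-deoxy-d-glucose, a glucose analogue that hexokinase phosphorylates but glycolysis does not use further. It was given in medium without sucrose, and the labels do not say how the sucrose of Suc_25mM was given. Groups follow the titles, although for the 6 libraries of Suc_25mM and 2DG_1mM the treatment label names them the other way round. The labels give no mock treatment. Differences from fls2 after flg22 therefore hold both the response to the peptide and whatever the fls2 mutation does without it, and differences of stp1/4/13 likewise.

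Total counts per library ranged from 17229303 to 19618995 at 2 h, from 9462067 to 11309472 at 10 h, from 15994904 to 20111338 at 24 h and from 8054500 to 12881741 in the sucrose and 2DG groups. FLS2 stood at 0.142 ± 0.0526 CPM (counts scaled to a common library size, mean ± SD, n = 3) in fls2 and 47.1 ± 11.3 in Col at 2 h, and it stayed under 1 CPM in fls2 at all times. At 2 h the mean of STP13 was 181 ± 5.88 CPM in Col against 7.85 ± 0.266 in the triple mutant, with 376 ± 48.2 against 55.2 ± 10.4 for STP4 and 168 ± 13.4 against 11.7 ± 15.1 for STP1. The 10 h libraries share a table with the sucrose and 2DG libraries and the 2 h and 24 h libraries share the other, so time and table cannot be told apart between 10 h and the other times, and no test crosses the tables. AOX2 was at 0 in 30 of the 36 libraries, with 13 counts at most, and AOX1C had 24 counts at most. The low-count filter left 9 members to be tested at 2 h and 24 h (all but AOX2) and 8 at 10 h and in the sucrose and 2DG experiment (all but AOX2 and AOX1C).

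The promoters are shown first because 5 of the 10 hold a loosened form of the mitochondrial dysfunction motif, searched on both strands as CTTG, any 5 bases, CA, any base and G, from 250 bases before to 50 bases after the annotated gene start. Of all 27443 promoters of the same length, 587 (2.14%) hold it. AOX1A, NDB2 and UPOX belong to the stimulon genes, many of which are known to carry the motif. The share among the members is thus a description and no test of enrichment. All sequences are from RefSeq, build TAIR10.1, read 5′ to 3′ on the strand of the gene. The submitters name their build TAIR10, and no coordinate here comes from their files. AOX1A (chr3:7906271-7906570, plus strand) holds the motif at 2 places, NDB2 (chr4:2572177-2572476, plus strand) and UPOX (chr2:9254128-9254427, plus strand) at 1 place each, and AOX1D (chr1:11668641-11668940, minus strand) at none. Capitals mark the matches.
AOX1A: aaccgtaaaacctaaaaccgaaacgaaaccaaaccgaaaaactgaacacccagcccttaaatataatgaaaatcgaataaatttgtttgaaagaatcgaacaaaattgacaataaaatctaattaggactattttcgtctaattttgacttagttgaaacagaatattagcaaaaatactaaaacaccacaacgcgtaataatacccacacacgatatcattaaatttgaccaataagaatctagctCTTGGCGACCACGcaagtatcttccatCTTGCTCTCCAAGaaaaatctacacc
NDB2: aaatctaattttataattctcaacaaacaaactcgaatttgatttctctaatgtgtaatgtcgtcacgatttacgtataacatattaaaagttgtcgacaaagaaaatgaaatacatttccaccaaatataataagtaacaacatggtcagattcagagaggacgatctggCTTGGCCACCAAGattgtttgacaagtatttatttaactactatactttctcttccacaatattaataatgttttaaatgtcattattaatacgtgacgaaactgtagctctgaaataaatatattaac
UPOX: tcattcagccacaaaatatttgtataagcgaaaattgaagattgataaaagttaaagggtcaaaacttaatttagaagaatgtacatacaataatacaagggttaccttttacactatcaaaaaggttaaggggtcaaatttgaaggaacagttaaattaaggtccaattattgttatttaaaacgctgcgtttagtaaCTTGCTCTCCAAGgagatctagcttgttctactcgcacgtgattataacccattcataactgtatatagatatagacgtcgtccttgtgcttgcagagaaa
AOX1D: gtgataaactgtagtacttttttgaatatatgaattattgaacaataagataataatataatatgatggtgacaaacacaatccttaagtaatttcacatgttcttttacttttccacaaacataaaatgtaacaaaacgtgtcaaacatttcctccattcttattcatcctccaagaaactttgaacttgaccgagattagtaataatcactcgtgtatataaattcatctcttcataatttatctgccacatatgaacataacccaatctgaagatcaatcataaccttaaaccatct

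The sites are printed in the direction in which the motif matches, with its fixed bases in capitals, and distances run from the annotated start to the most upstream base of a site. The first AOX1A site lies 3 bases before the start and the other 25 bases after it, the UPOX site 51 bases before, NDB2 79, NDA1 70 and AOX1B 118 bases before, the last as a match on the minus strand of the gene. The second AOX1A site and the UPOX site are the same 13 bases.
AOX1A first site: CTTGgcgacCAcG
AOX1A second site: CTTGctctcCAaG
UPOX site: CTTGctctcCAaG
NDB2 site: CTTGgccacCAaG
NDA1 site: CTTGcgcatCAaG
AOX1B site: CTTGtagcaCAcG
The windows of AOX1C, AOX1D, AOX2, NDA2 and OM66 hold no match to these letters. The W box core TTGAC, bound by WRKY factors, is in 9 of the 10 windows and in 50.5% of all promoters, and the G box CACGTG in 2 of 10 and 7.68%. These matches describe letters and show no binding.

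In TAIR10.1, AOX1A (AT3G22370, chr3:7906521-7908746) and AOX1B (AT3G22360, chr3:7904097-7905576) lie next to each other on chromosome 3, and AOX1C (AT3G27620, chr3:10229045-10230707) and OM66 (AT3G50930, chr3:18929526-18932181, symbol BCS1 in RefSeq) are on the same chromosome. AOX1D (AT1G32350) is at chr1:11666886-11668690, NDA1 (AT1G07180) at chr1:2204104-2207099, NDA2 (AT2G29990) at chr2:12793320-12796085 and UPOX (AT2G21640) at chr2:9254378-9255743. NDB2 (AT4G05020) is at chr4:2572427-2576599 and AOX2 (AT5G64210) at chr5:25683770-25685731. No member overlaps another annotated gene. Because 3′ tags were counted, the last 300 bases of each transcript were compared with all other transcripts. AOX1B matched AOX1C at 86.4% over 169 bases, so reads of these low members could be split. NDA2 matched NDA1 at 83.6% over 55 bases, and AOX1D matched LHCB2.1, a light-harvesting protein gene, at 89.5% over 114 bases. In Suc_0mM, where LHCB2.1 stood at 2186 ± 747 CPM, AOX1D had 6 counts or fewer in each library. AOX1A, NDB2, NDA1, UPOX and OM66 had no such match.

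**Figure D1:**
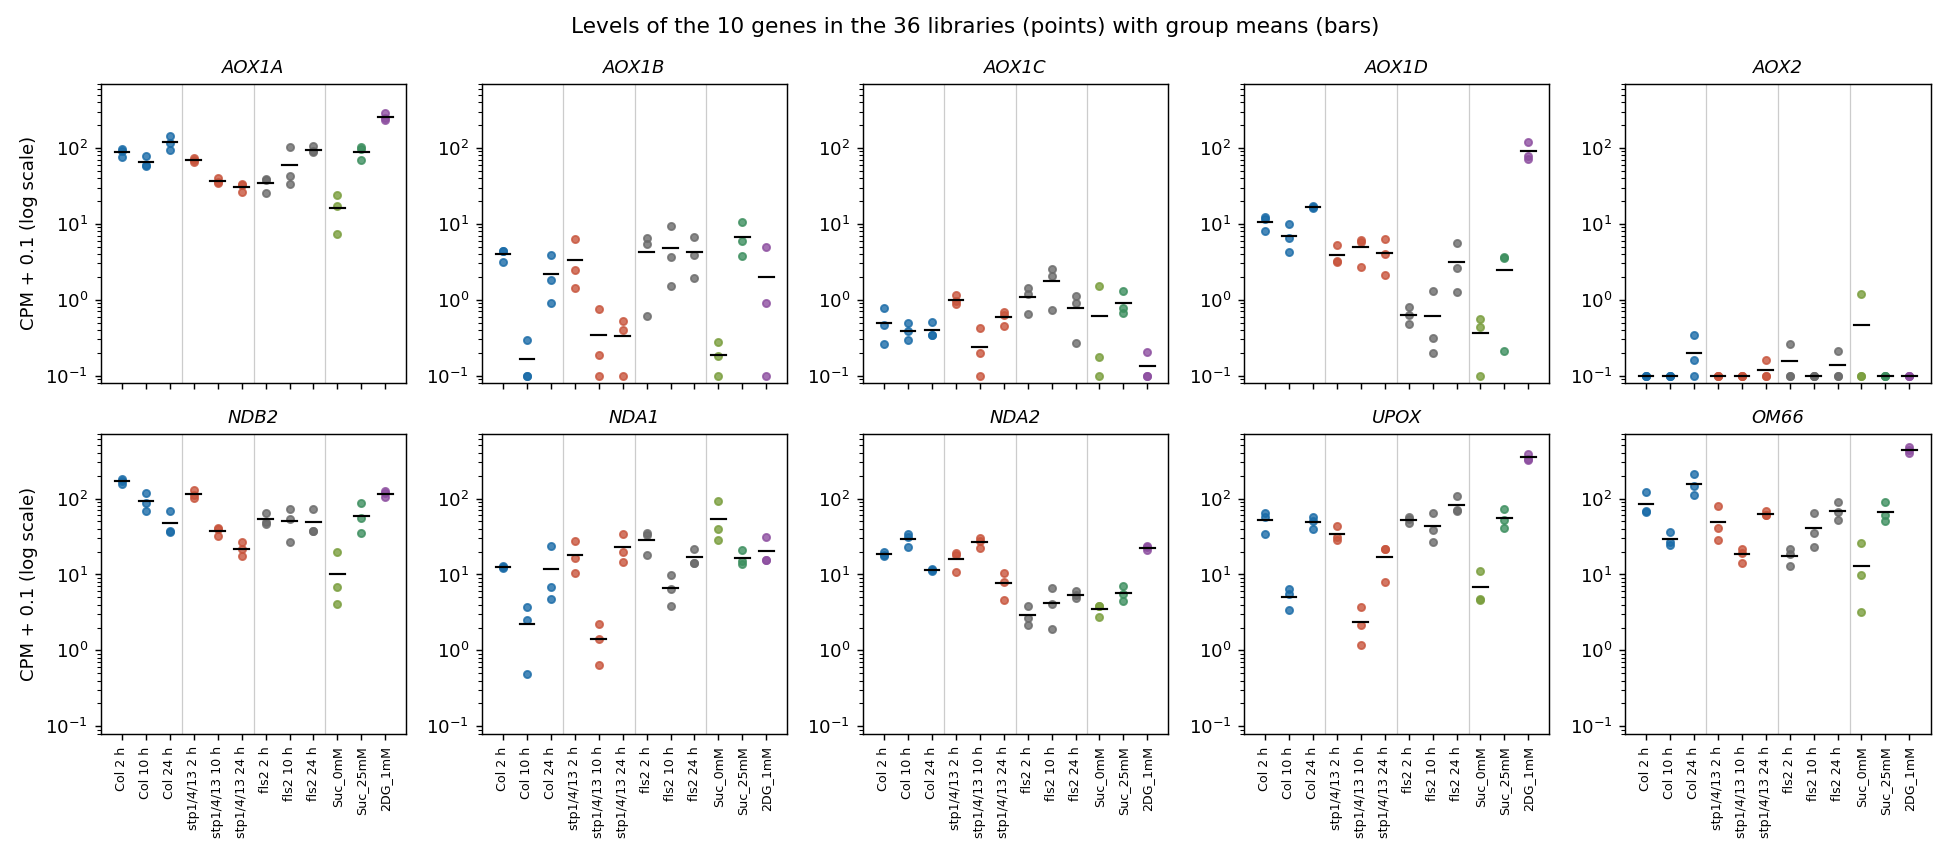
Level of each of the 10 genes in the 36 libraries, as CPM + 0.1 on a log axis with the same limits in each panel. Each point is 1 library and each bar the mean of 3. CPM was scaled separately for 2 h and 24 h, for 10 h and for the sucrose and 2DG groups. AOX1A, AOX1D, UPOX and OM66 are highest in 2DG_1mM, NDB2 in Col at 2 h and NDA2 in Col at 10 h, and points at the bottom of the AOX2 panel are libraries with 0 counts.

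At 2 h after flg22, 5 of the 9 tested members were higher in Col than in fls2 (AOX1A, AOX1D, NDB2, NDA2 and OM66) and 0 were lower, where 18.7% of all genes tested were higher and 16.1% lower. The median log2 fold change was 1.36 over the tested members and -0.02 over all genes. The count includes AOX1A, and the median is AOX1A's own value. The Col levels of AOX1A were among the values that chose the genes, so this median is a description only. In this and the following comparisons the values are log2 fold changes ± standard error with 3 libraries per group, and adjusted p-values are from edgeR's quasi-likelihood test, adjusted by Benjamini-Hochberg over every gene in the fit. Libraries are given in the order of replicates 1, 2 and 3.

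AOX1A, the main stress-induced oxidase, stood at 95.6, 75.2 and 91.5 CPM in Col and at 37.7, 25.3 and 38.9 CPM in fls2 at 2 h. All Col libraries were above all fls2 libraries. The log2 fold change was 1.36 ± 0.19, given as a description with no test. These Col levels were among the values that chose the genes. AOX1D, a less studied stress-responsive oxidase, stood at 11.3, 8.0 and 12.3 CPM in Col and 0.377, 0.521 and 0.709 in fls2. Its groups did not overlap either, with a log2 fold change of 4.27 ± 0.51 (adjusted p = 3.23e-06). For AOX1B the difference was -0.08 ± 0.73, adjusted p = 0.946, and for AOX1C -1.30 ± 0.62, adjusted p = 0.118.

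Among the dehydrogenases, the outer-face enzyme NDB2 stood at 172, 179 and 156 CPM in Col and 63.7, 49.4 and 46.1 in fls2, with 1.67 ± 0.28 (adjusted p = 0.000112). The matrix-face enzyme NDA2 stood at 18.1, 19.7 and 17.5 CPM in Col and 3.77, 2.09 and 2.58 in fls2, with 2.71 ± 0.29 (adjusted p = 7.9e-07). For both, every Col library was above every fls2 library. Its relative NDA1, a light-regulated gene, lay the other way, at 12.9, 12.1 and 12.6 CPM in Col and 33.0, 35.2 and 17.8 in fls2. These groups did not overlap, but the difference of -1.19 ± 0.48 did not pass (adjusted p = 0.0615), and it passed without fls2 replicate 3 (-1.44, adjusted p = 0.0417) and in 4 other settings named further on.

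OM66 stood at 119.9, 67.1 and 69.2 CPM in Col and 18.3, 12.8 and 21.8 in fls2 at 2 h, with no overlap and a log2 fold change of 2.27 ± 0.35 (adjusted p = 5.83e-05). UPOX, by contrast, stood at 57.1, 34.1 and 64.9 CPM in Col and 54.2, 47.0 and 57.0 in fls2. The UPOX groups overlapped, and the difference was -0.02 ± 0.31, adjusted p = 0.969.

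Summed over 8 genes each, markers of green tissue stood at 5408 to 9188 CPM in Col and 15343 to 21148 in fls2 at 2 h, and markers of root tissue at 91.7 to 119.5 and 95.5 to 124. All 8 green tissue markers were lower in Col, and 1 of 8 root markers was. In bulk seedlings, fewer cells of a type and less RNA per cell cannot be told apart, and the part of these marker levels in the members' differences was not tested.

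At 10 h, 3 of 8 tested members were higher in Col than in fls2 (AOX1D, NDB2 and NDA2) and 3 lower (UPOX, AOX1B and NDA1). Of all genes tested 24.9% were higher and 26.4% lower, so over 8 genes the counts were near these shares. The members' median was -0.18, against -0.07 over all genes. UPOX stood at 6.29, 3.27 and 5.51 CPM in Col and at 37.8, 26.9 and 64.6 in fls2, a log2 fold change of -3.10 ± 0.35 (adjusted p = 1.14e-06). Every Col library was far below every fls2 library. AOX1B had 2, 0 and 0 counts in the Col libraries and 14, 33 and 99 in fls2. Over the groups, fls2 was higher by a ratio of 73.1 (95% counting interval 19.9 to 609), with 2 counts in Col in all. AOX1C, left out by the low-count filter, had 4, 3 and 2 counts in Col, 0, 1 and 3 in stp1/4/13 and 24, 6 and 21 in fls2, the latter above both. In the alternatives that tested it, its adjusted p was 0.0167 to 0.0865 for Col and 0.00368 to 0.0274 for stp1/4/13 against fls2.

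NDA2 stood at 34.1, 23.0 and 31.4 CPM in Col and 1.81, 4.04 and 6.44 in fls2 at 10 h, without overlap and with 2.83 ± 0.31 (adjusted p = 6.83e-07). AOX1D stood at 9.97, 6.35 and 4.16 CPM in Col and 0.101, 0.213 and 1.21 in fls2, with 3.67 ± 0.61 (adjusted p = 8.59e-05). These, the members with the largest difference at 2 h, stayed higher in all Col libraries. NDB2 stood at 119, 68.0 and 88.3 CPM in Col and 26.8, 53.9 and 71.7 in fls2. Its groups overlapped, and the difference of 0.85 ± 0.26 (adjusted p = 0.0123) did not pass without Col replicate 1 (adjusted p = 0.0796).

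NDA1 was lower in Col at 10 h, at 3.58, 2.40 and 0.387 CPM against 3.72, 6.28 and 9.80 in fls2, with a log2 fold change of -1.63 ± 0.59 (adjusted p = 0.0277). That call was lost without Col replicate 2 (adjusted p = 0.0535), Col replicate 3 (-1.14, 0.0922) or fls2 replicate 3 (0.137). AOX1A stood at 77.4, 56.9 and 59.6 CPM in Col and 42.1, 33.4 and 101 in fls2, where replicate 3 of fls2 was above every Col library and the other 2 below. Its difference was 0.13 ± 0.28, adjusted p = 0.726, and 0.78 without fls2 replicate 3 (adjusted p = 0.0014).

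OM66 stood at 24.3, 26.5 and 36 CPM in Col and 22.7, 35.4 and 63.8 in fls2 at 10 h, with overlap and a difference of -0.49 ± 0.28, adjusted p = 0.158. It was -0.78 without fls2 replicate 1 (adjusted p = 0.0146). The summed root markers stood at 16.8 to 26.7 CPM in Col and 134 to 199 in fls2, with 6 of 8 lower in Col and AGP30 at 0 counts there, and the part of this in the members' lower levels was not tested. Green tissue markers stood at 7566 to 10403 and 12831 to 18638 CPM, 4 of 8 lower in Col.

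At 24 h, 3 of 9 tested members were higher in Col than in fls2 (AOX1D, NDA2 and OM66) and 0 were lower, where 11.0% of all genes tested were higher and 7.59% lower. The median was -0.05 over the tested members and 0.01 over all genes. AOX1D stood at 16.1, 16.7 and 17.0 CPM in Col and 5.45, 2.5 and 1.16 in fls2, with 2.46 ± 0.43 (adjusted p = 0.000557). NDA2 stood at 11.4, 11.7 and 11.2 CPM in Col and 5.96, 5.21 and 4.85 in fls2, with 1.1 ± 0.27 (adjusted p = 0.00806). Neither gene's groups overlapped, and both genes were higher in Col at all 3 times.

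OM66 stood at 146, 211 and 109.8 CPM in Col and 88.7, 51.9 and 67.1 in fls2 at 24 h, with 1.17 ± 0.34 (adjusted p = 0.0212). The call was lost without Col replicate 2 (0.87, adjusted p = 0.13), fls2 replicate 2 (0.107) or fls2 replicate 3 (0.0628). AOX1A stood at 94.8, 144 and 115 CPM in Col and 106, 90.9 and 87.2 in fls2, which overlapped. Its difference was 0.32 ± 0.19, given as a description with no test for the same reason as at 2 h. NDB2 stood at 36.1, 36.7 and 69.2 CPM in Col and 36.9, 37.7 and 72.4 in fls2 and differed by -0.05 ± 0.27, adjusted p = 0.923.

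UPOX stood at 39.5, 56.7 and 50.9 CPM in Col and 71.0, 69.1 and 109 in fls2 at 24 h. The Col libraries were all below the fls2 libraries, but the difference was -0.76 ± 0.32, adjusted p = 0.104. NDA1 stood at 4.67, 6.77 and 23.8 CPM in Col and 14.1, 14.2 and 21.6 in fls2 and differed by -0.49 ± 0.48, adjusted p = 0.521, with Col replicate 3 apart from the other 2. Without that library the NDA1 difference was -1.56 (adjusted p = 0.0116). AOX1B differed by -0.95 ± 0.75, adjusted p = 0.418, and AOX1C by -1.14 ± 0.65, adjusted p = 0.244. The summed root markers stood at 31.7 to 38.8 CPM in Col and 103 to 130.4 in fls2, 6 of 8 lower in Col, and their part in the members' values was not tested.

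The same genes were followed in fls2 alone, where the receptor is absent. Between 2 h and 24 h, 4 of 9 tested members rose in fls2 (AOX1A, AOX1D, NDA2 and OM66) and 0 fell, where 11.9% of all genes tested rose and 7.93% fell. The members' median was 0.66, against 0.05 over all genes. From the fls2 values given above, AOX1A rose by 1.48 ± 0.19 (adjusted p = 0.0012) and OM66 by 1.97 ± 0.35 (adjusted p = 0.00335), with all 24 h libraries above all 2 h libraries. AOX1D rose by 2.47 ± 0.52 (adjusted p = 0.00661), a call lost without the 24 h replicate 1 (adjusted p = 0.0522). NDA2 rose by 0.92 ± 0.28 (adjusted p = 0.0321), a call lost without the 24 h replicate 1 (0.127), 24 h replicate 2 (0.0782), 2 h replicate 2 (0.161) or 2 h replicate 3 (0.0917). Of the green tissue markers 4 of 8 fell in fls2 (median -0.89), from 15343 to 21148 CPM summed at 2 h to 12584 to 15551 at 24 h, and their part was not tested. Time after flg22, time in liquid medium and time of day cannot be told apart here.

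The log2 fold change of Col over fls2 was smaller at 24 h than at 2 h for 3 of 9 tested members (AOX1A, NDB2 and NDA2) and greater for 0, in the test of the interaction itself, where 6.04% of all genes tested changed downward and 4.50% upward. The change was -1.05 ± 0.27 for AOX1A, given as a description with no test because its Col levels at both times were among the values that chose the genes. Without AOX1A, 2 of 8 members changed downward. It was -1.72 ± 0.39 for NDB2 (adjusted p = 0.00745) and -1.61 ± 0.39 for NDA2 (adjusted p = 0.0118). For AOX1A the Col means were 87.4 ± 10.8 and 118 ± 24.5 CPM at 2 h and 24 h and the fls2 means 33.9 ± 7.54 and 94.7 ± 10.0. For NDB2 the Col means were 169 ± 11.8 and 47.3 ± 18.9 CPM and the fls2 means 53.1 ± 9.37 and 49.0 ± 20.3. The narrowing thus came with a higher AOX1A level in fls2 and with a lower NDB2 level in Col. For AOX1D the change was -1.81 ± 0.66, adjusted p = 0.0888, and it passed without the fls2 24 h replicate 3 (-2.21, adjusted p = 0.0182). For OM66 it was -1.1 ± 0.48, adjusted p = 0.16. In the same interaction 7 of 8 root markers changed downward (median -2.11) and 5 of 8 green tissue markers upward (median 1.48), and their part in the members' values was not tested.

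**Figure D2:**
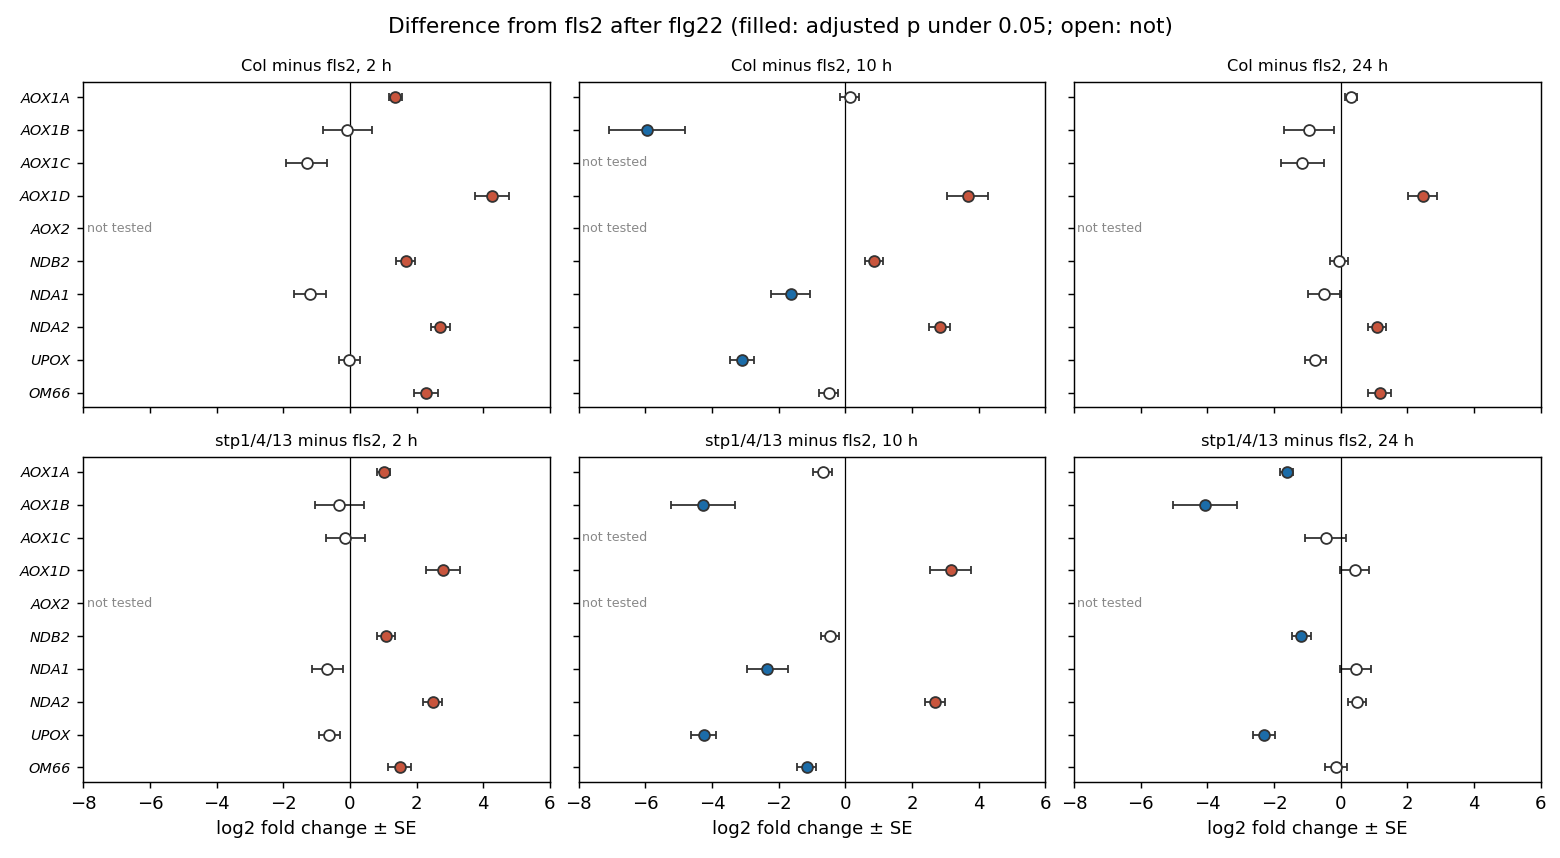
Log2 fold change ± standard error of each member against fls2 at 2, 10 and 24 h after flg22, for Col (top) and stp1/4/13 (bottom), 3 libraries per group. Filled points passed an adjusted p of 0.05 (red higher, blue lower), open points did not. AOX1D and NDA2 are filled to the right in both genotypes at 2 h and 10 h, UPOX is filled to the left in both at 10 h, and UPOX and NDB2 are filled to the left in stp1/4/13 at 24 h. AOX1A at 2 h and 24 h uses libraries that entered the choice of genes, and AOX1B in Col at 10 h rests on 2 counts.

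The transporter mutant was set against the same fls2 libraries, so its values stand beside those of Col and share their background. At 2 h, 5 of 9 tested members were higher in stp1/4/13 than in fls2 and 0 were lower, where 15.8% of all genes tested were higher and 9.82% lower, and the median was 1.02 against -0.03 over all genes. The 5 were AOX1A, AOX1D, NDB2, NDA2 and OM66. AOX1A stood at 72.3, 64.7 and 68.8 CPM in stp1/4/13. Its log2 fold change of 1.02 ± 0.19 is given as a description with no test. Its levels in these stp1/4/13 libraries were among the values that chose the genes. The count of 5 includes it, and the median of 1.02 is AOX1A's own value and so a description only. AOX1D stood at 3.07, 5.18 and 3.09 CPM (2.80 ± 0.52, adjusted p = 0.000504). NDB2 stood at 128, 100.3 and 111 CPM (1.09 ± 0.27, adjusted p = 0.00631). All libraries of these genes were above all of fls2. NDA2 stood at 17.7, 18.8 and 10.8 CPM (2.48 ± 0.29, adjusted p = 3.07e-06) and OM66 at 79.7, 28.2 and 40.7 (1.49 ± 0.35, adjusted p = 0.00372), also without overlap. UPOX, at 43.4, 28.4 and 31.5 CPM, was below all fls2 libraries, with a difference of -0.61 ± 0.32, adjusted p = 0.167. The green tissue markers summed to 8602 to 16234 CPM in stp1/4/13 and 15343 to 21148 in fls2 at 2 h, 4 of 8 lower (median -0.84), and the root markers to 94.9 to 105 and 95.5 to 124, 2 of 8 higher, with their part not tested.

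At 10 h, 2 of 8 members were higher in stp1/4/13 than in fls2 (AOX1D and NDA2) and 4 lower (UPOX, AOX1B, NDA1 and OM66), where 26.9% of all genes tested were higher and 25.3% lower, and the median was -0.92 against -0.01 over all genes. UPOX stood at 2.05, 3.59 and 1.09 CPM (-4.25 ± 0.38, adjusted p = 7.2e-08). AOX1B had 1, 0 and 6 counts (-4.26 ± 0.96, adjusted p = 0.0013). NDA1 stood at 0.535, 2.1 and 1.31 CPM (-2.34 ± 0.62, adjusted p = 0.00431). Each was below all fls2 libraries, as in Col. OM66, at 13.9, 19.2 and 21.8 CPM, was lower, with a log2 fold change of -1.16 ± 0.29 (adjusted p = 0.0028). NDA2 stood at 22.5, 27.7 and 30.5 CPM (2.70 ± 0.31, adjusted p = 1.05e-06) and AOX1D at 5.62, 6.09 and 2.61 (3.16 ± 0.62, adjusted p = 0.000376), above all of fls2.

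For AOX1A, at 35.7, 40.5 and 34.8 CPM in stp1/4/13 at 10 h, the difference from fls2 was -0.67 ± 0.29, adjusted p = 0.0608. It passed without fls2 replicate 1 (-0.86, adjusted p = 0.0213) or 2 (-0.97, adjusted p = 0.00549). NDB2, at 31.7, 39.1 and 40.3 CPM, differed by -0.46 ± 0.27, adjusted p = 0.165, and passed without fls2 replicate 1 (-0.76, adjusted p = 0.00543). The root markers summed to 23.54 to 31.2 CPM in stp1/4/13 at 10 h, with COBL9 at 0 counts and 6 of 8 lower than in fls2, and their part was not tested.

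At 24 h, 4 of 9 tested members were lower in stp1/4/13 than in fls2 (AOX1A, AOX1B, NDB2 and UPOX) and 0 were higher, where 8.39% of all genes tested were lower and 11.5% higher, and the median was -0.44 against 0.03 over all genes. Without AOX1A, whose level in these stp1/4/13 libraries was among the values that chose the genes, 3 of 8 were lower. AOX1A stood at 33.8, 26.0 and 32.7 CPM, and its log2 fold change of -1.62 ± 0.19 is given as a description with no test. UPOX stood at 21.8, 7.74 and 21.8 CPM (-2.29 ± 0.33, adjusted p = 7.21e-05). NDB2 stood at 17.2, 21.2 and 26.8 CPM (-1.17 ± 0.28, adjusted p = 0.00543). AOX1B had 7, 6 and 0 counts (-4.06 ± 0.95, adjusted p = 0.00525). For all 4 genes every stp1/4/13 library lay below every fls2 library. AOX1D, at 2.03, 6.16 and 3.86 CPM, differed by 0.42 ± 0.43, adjusted p = 0.541. NDA2, at 4.53, 7.79 and 10.4, differed by 0.50 ± 0.27, adjusted p = 0.215, and OM66, at 69.2, 59.8 and 60.4, by -0.13 ± 0.34, adjusted p = 0.827. The green tissue markers summed to 15401 to 18885 CPM in stp1/4/13 and 12584 to 15551 in fls2 (5 of 8 higher), and the root markers to 22.6 to 29.4 and 103 to 130.4 (7 of 8 lower), with their part in these values not tested.

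The transporter mutant was tested directly against Col at 10 h, in libraries that the choice of genes did not use. Of 8 tested members, 1 was lower in stp1/4/13 (NDB2) and 0 were higher, where 4.84% of all genes tested were lower and 7.67% higher. The median was -0.68 over the tested members and 0.00 over all genes. From the libraries given above, NDB2 was lower, with a log2 fold change of -1.31 ± 0.27 (adjusted p = 0.00398), with every stp1/4/13 library below every Col library. AOX1A and OM66 were also below all Col libraries, but their differences were -0.80 ± 0.29, adjusted p = 0.0807, and -0.67 ± 0.29, adjusted p = 0.152. Both passed when only the libraries of the 2 groups were fitted (adjusted p = 0.000524 and 0.0194) or with no filter on low counts (0.00432 and 0.0351). UPOX overlapped and differed by -1.15 ± 0.41, adjusted p = 0.0781, and it passed without stp1/4/13 replicate 2 (-1.65, adjusted p = 0.0373). AOX1D differed by -0.51 ± 0.49, adjusted p = 0.562, NDA2 by -0.13 ± 0.26, adjusted p = 0.808, and NDA1 by -0.70 ± 0.64, adjusted p = 0.542. Green tissue markers summed to 15837 to 19508 CPM in stp1/4/13 and 7566 to 10403 in Col, 6 of 8 higher, and their part was not tested.

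At 2 h and 24 h the same contrast chose the genes and is given with no test, from the library values above, as differences of mean log2 CPM. For AOX1A, stp1/4/13 minus Col was -0.34 at 2 h and -1.92 at 24 h, a change of -1.58. At 24 h the Col mean of AOX1A was 3.83 times that of stp1/4/13, and at 2 h 1.27 times. Between these times the stp1/4/13 mean of AOX1A went from 68.6 ± 3.80 to 30.8 ± 4.20 CPM and the Col mean from 87.4 ± 10.8 to 118 ± 24.5. The 24 h libraries were all below the 2 h libraries in stp1/4/13 and overlapped them in Col. Green tissue markers summed to 15401 to 18885 CPM in stp1/4/13 and 6918 to 12606 in Col at 24 h, without overlap, and to 8602 to 16234 and 5408 to 9188 at 2 h. Root markers summed to 22.6 to 29.4 and 31.7 to 38.8 CPM at 24 h, and to 94.9 to 105 and 91.7 to 119.5 at 2 h. Their part in the members' levels was not tested.

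UPOX had a difference of -0.57 at 2 h and -1.64 at 24 h, AOX1D of -1.47 and -2.15, and OM66 of -0.87 and -1.25. NDB2 had -0.59 and -1.07, NDA2 -0.26 and -0.67, and AOX1B -0.48 and -2.69. At 24 h, AOX1A, AOX1B, AOX1D, NDB2, NDA2, UPOX and OM66 were each lower in every stp1/4/13 library than in any Col library, and at 2 h AOX1A, AOX1D and NDB2 were. The share of all genes that separated in this way was not counted. The separation thus describes each gene and says nothing of the members as a set. NDA1 lay the other way, by 0.40 at 2 h and 1.22 at 24 h, with overlap at both times, as did AOX1C, by 1.09 and 0.56, on few counts.

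In Col without flg22, the 2DG_1mM libraries had the highest levels of AOX1A, AOX1D, UPOX and OM66 among the groups of their table. Against Suc_0mM, 7 of 8 tested members rose (AOX1A, AOX1B, AOX1D, NDB2, NDA2, UPOX and OM66) and 1 fell (NDA1), where 21.3% of all genes tested rose and 27.9% fell. The median log2 fold change was 4.13 over the tested members and -0.21 over all genes. AOX1A stood at 235, 284 and 249 CPM in 2DG_1mM and 24.0, 7.29 and 17.3 in Suc_0mM (3.98 ± 0.39, adjusted p = 1.41e-05). AOX1D stood at 70.6, 119.8 and 78.0 CPM in 2DG_1mM and 0.466, 0 and 0.337 in Suc_0mM (8.29 ± 0.91, adjusted p = 2.89e-05), where the Suc_0mM libraries held 10 counts in all. AOX1A and AOX1D were higher in each 2DG library than in any other of the 3 groups.

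UPOX stood at 332, 386 and 323 CPM in 2DG_1mM and 11.0, 4.48 and 4.72 in Suc_0mM, a log2 fold change of 5.68 ± 0.41 (adjusted p = 2.25e-06). OM66 stood at 393, 473 and 429.6 CPM in 2DG_1mM and 26.0, 3.08 and 9.60 in Suc_0mM, with 5.06 ± 0.62 (adjusted p = 6.3e-05). NDB2 stood at 119, 104 and 124 CPM in 2DG_1mM and 6.75, 3.96 and 19.7 in Suc_0mM, with 3.51 ± 0.54 (adjusted p = 0.000267). None of these groups overlapped. NDA2 stood at 23.1, 20.7 and 23.8 CPM in 2DG_1mM and 3.72, 3.78 and 2.69 in Suc_0mM, with 2.72 ± 0.34 (adjusted p = 7.03e-05), again without overlap.

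AOX1B had 8, 0 and 41 counts in 2DG_1mM and 0, 2 and 1 in Suc_0mM, a ratio of 20.2 (95% counting interval 6.52 to 101). Its call was lost without 2DG replicate 3 (adjusted p = 0.221), Suc_0mM replicate 1 (0.0816) or Suc_0mM replicate 3 (0.0792). NDA1 stood at 30.7, 15.4 and 15.6 CPM in 2DG_1mM and 40.0, 28.3 and 91.9 in Suc_0mM. Its groups overlapped, and the log2 fold change of -1.37 ± 0.44 (adjusted p = 0.0217) was lost without 2DG replicate 2 (adjusted p = 0.0793) or 3 (0.0712), or Suc_0mM replicate 3 (-0.74, 0.138).

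Suc_25mM was set against the same Suc_0mM libraries. In it, 6 of 8 tested members rose (AOX1A, AOX1B, AOX1D, NDB2, UPOX and OM66) and 1 fell (NDA1), where 6.41% of all genes tested rose and 6.08% fell. The median was 2.5 over the tested members and 0.04 over all genes. AOX1A stood at 97.6, 102 and 68.3 CPM in Suc_25mM (2.46 ± 0.37, adjusted p = 0.00167). UPOX stood at 73.1, 41.2 and 52.6 CPM (3.04 ± 0.36, adjusted p = 0.000511). NDB2 stood at 87.2, 35.3 and 55.0 CPM (2.54 ± 0.52, adjusted p = 0.00804). All were above all Suc_0mM libraries. AOX1B had 121, 62 and 32 counts in Suc_25mM and 3 in all of Suc_0mM, a ratio of 90.4 (95% counting interval 30.5 to 442). Its call was lost without Suc_25mM replicate 1 (adjusted p = 0.0802) or Suc_0mM replicate 1 (0.0575) or 3 (0.0709).

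OM66 stood at 89.5, 61.0 and 50.2 CPM in Suc_25mM (2.37 ± 0.56, adjusted p = 0.0167), a call lost without Suc_25mM replicate 1 (adjusted p = 0.0689) or Suc_0mM replicate 3 (0.0689). AOX1D stood at 3.43, 3.51 and 0.113 CPM, with replicate 3 inside the range of Suc_0mM. Its rise of 3.08 ± 0.91 (adjusted p = 0.0468) was lost without replicate 1 (0.161) or 2 (0.139) of Suc_25mM, or replicate 1 (0.0656), 2 (0.117) or 3 (0.114) of Suc_0mM. NDA1 stood at 14.7, 13.7 and 20.9 CPM, below all of Suc_0mM. Its log2 fold change of -1.70 ± 0.44 (adjusted p = 0.0268) was lost without replicate 1 (0.109), 2 (0.0971) or 3 (0.0554) of Suc_25mM or replicate 3 of Suc_0mM (0.123). NDA2, at 6.95, 5.5 and 4.40 CPM, was above all of Suc_0mM but differed by 0.73 ± 0.33, adjusted p = 0.195. Without Suc_25mM replicate 1 or Suc_0mM replicate 3, 3 members passed.

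Set against each other, 2DG_1mM had 5 of 8 tested members higher than Suc_25mM (AOX1A, AOX1D, NDA2, UPOX and OM66) and 0 lower, where 21.4% of all genes tested were higher and 28.0% lower, and the median was 1.76 against -0.23 over all genes. The log2 fold change was 5.21 ± 0.74 for AOX1D (adjusted p = 0.000174), 2.69 ± 0.56 for OM66 (adjusted p = 0.00208) and 2.64 ± 0.35 for UPOX (adjusted p = 0.00011). It was 2.00 ± 0.33 for NDA2 (adjusted p = 0.000504) and 1.52 ± 0.35 for AOX1A (adjusted p = 0.00402). No library of Suc_25mM reached the level of a 2DG_1mM library for these genes. NDB2 differed by 0.96 ± 0.49, adjusted p = 0.121, without overlap, and NDA1 by 0.33 ± 0.44, adjusted p = 0.561. AOX1B differed by -1.83 ± 1.12, adjusted p = 0.198, and passed as lower without 2DG replicate 3 (-4.01, adjusted p = 0.0183).

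These sugar results rest on the titles: with groups from the treatment label, Suc_25mM and 2DG_1mM exchange places, each contrast against Suc_0mM takes the other's values, and the 5 differences between them change sign. The tissue markers moved with these groups. Green tissue markers summed to 29252 to 48997 CPM in Suc_0mM, 10792 to 16319 in Suc_25mM and 6190.4 to 12318 in 2DG_1mM. Root markers summed to 28.4 to 56.1, 41.2 to 75.4 and 2.36 to 4.95 CPM, with EXPA7 at 0 counts and 7 of 8 lower in 2DG_1mM than in Suc_0mM. The part of these shifts in the members' values was not tested.

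**Figure D3:**
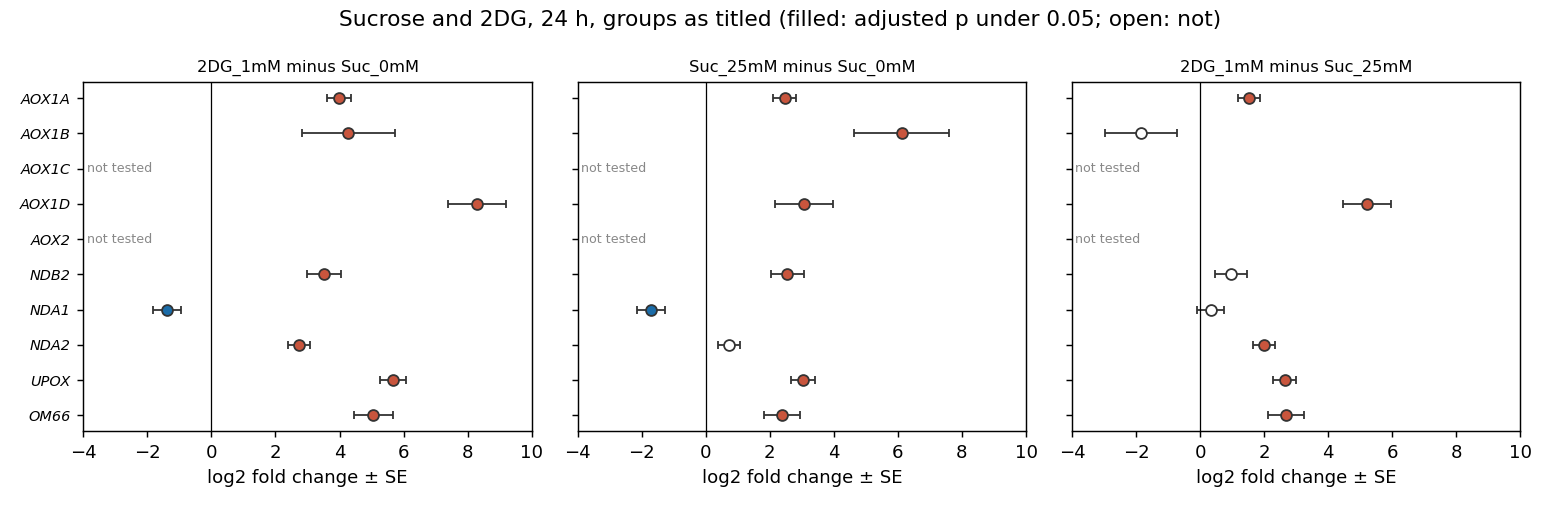
Log2 fold change ± standard error of each member among the 3 groups without flg22, 3 Col libraries per group at 24 h, with groups as titled. Filled points passed an adjusted p of 0.05 (red higher, blue lower), open points did not. AOX1D, UPOX and OM66 are far to the right in 2DG_1mM against Suc_0mM, and NDA1 is to the left against Suc_0mM in both. AOX1B against Suc_0mM rests on 3 counts there.

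Within the table of 2 h and 24 h, the AOX1A means ran from 30.8 ± 4.20 CPM in stp1/4/13 at 24 h and 33.9 ± 7.54 in fls2 at 2 h, through 68.6 ± 3.80 in stp1/4/13 at 2 h, 87.4 ± 10.8 in Col at 2 h and 94.7 ± 10.0 in fls2 at 24 h, to 118 ± 24.5 in Col at 24 h. Of neighbours in that order, the ranges of libraries overlapped for the lowest pair and for the highest pair, and for Col at 2 h with fls2 at 24 h. In the other table they ran from 16.2 ± 8.39 in Suc_0mM through 37.0 ± 3.07 in stp1/4/13, 58.9 ± 36.9 in fls2 and 64.7 ± 11.1 in Col at 10 h to 89.2 ± 18.3 in Suc_25mM and 256 ± 25.1 in 2DG_1mM. There, fls2 at 10 h overlapped the groups on either side of it, and Col at 10 h overlapped Suc_25mM. CPM was scaled separately for the 10 h libraries and for the sucrose and 2DG libraries, so the order between these sets is approximate.

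As a description over the 12 group means, each centred on the mean of its table, the Pearson correlation with AOX1A was 0.909 for OM66, 0.783 for AOX1D, 0.754 for NDB2 and 0.749 for UPOX. It was 0.487 for NDA2, 0.467 for AOX1B, -0.0951 for NDA1, -0.281 for AOX1C and -0.408 for AOX2, the last 2 on few counts. Among the members, OM66 thus had the highest correlation with AOX1A, and NDA1 did not follow it. AOX1A and OM66 both had their lowest mean in Suc_0mM (16.2 and 12.9 CPM) and their highest in 2DG_1mM (256 and 432 CPM). The part of these groups in the correlation was not tested. Among 5379 genes with a symbol and enough reads in both tables, the 5 most like AOX1A were PFK7, a phosphofructokinase of glycolysis (0.967), ABCB4, an auxin transporter and mitochondrial dysfunction stimulon gene (0.954), SAG24 (0.953), VPS25, a subunit of an endosomal sorting complex (0.952), and MEE13 (0.944). The means share libraries across genes, and the correlations carry no test.

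Other genes of the mitochondrial stress response were read from lists chosen by function, with earlier results of these data known, and their values are log2 fold changes ± standard error. Of 17 further genes of the mitochondrial dysfunction stimulon, 6 were higher in Col than in fls2 at 2 h and 0 lower (against 18.7% higher and 16.1% lower over all genes, median 0.79), and at 10 h 4 of 16 tested were higher and 10 lower (against 24.9% higher and 26.4% lower over all genes, median -1.06). The share higher at 10 h was near that of all genes. CYP81D8, a cytochrome P450, was higher in Col by 3.37 ± 0.44 at 2 h and 2.04 ± 0.42 at 10 h. UGT74E2, which glucosylates the auxin indole-3-butyric acid, was lower, at -3.84 ± 0.49 at 10 h, and the transporter gene DTX3 at -3.22 ± 0.40. TIM17-1, a subunit of the mitochondrial import machinery, was higher by 2.16 ± 0.25 at 10 h. At 24 h, 1 of the 17 was higher and 2 lower in Col (against 11.0% higher and 7.59% lower over all genes, median -0.15).

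In stp1/4/13 against fls2, 4 of the 17 were higher and 0 lower at 2 h (against 15.8% higher and 9.82% lower over all genes, median 0.46), 3 and 10 of 16 at 10 h (against 26.9% higher and 25.3% lower over all genes, median -1.36), and 0 and 12 at 24 h (against 11.5% higher and 8.39% lower over all genes, median -1.62). At 24 h, AT12CYS-2, a small mitochondrial cysteine-motif protein, was lower, at -3.95 ± 0.33, UGT74E2 at -3.73 ± 0.51 and the glutathione transferase GSTU25 at -3.64 ± 0.34. GSTU24 and GSTU25 are close paralogs, and counting could split their reads. ANAC013 was lower, at -1.21 ± 0.23 at 24 h. In fls2 alone, 12 of 17 rose from 2 h to 24 h and 0 fell (against 11.9% higher and 7.93% lower over all genes, median 1.33), among them CYP81D8 by 2.91 ± 0.43. In stp1/4/13 against Col at 10 h, 1 of 16 was lower and 0 higher (against 7.67% higher and 4.84% lower over all genes, median -0.33).

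Without flg22, 15 of the 17 stimulon genes were higher in 2DG_1mM than in Suc_0mM and 0 lower (against 21.3% higher and 27.9% lower over all genes, median 3.72), and in Suc_25mM 12 were higher and 0 lower (against 6.41% higher and 6.08% lower over all genes, median 2.59). GSTU25 stood at 149 ± 85.1 CPM in 2DG_1mM, 48.0 ± 4.13 in Suc_25mM and 2.15 ± 2.20 in Suc_0mM, and rose by 6.12 ± 0.74 with 2DG. UGT74E2 rose by 5.87 ± 0.36 with 2DG and 4.58 ± 0.34 with sucrose, and GSTU24 by 6.03 ± 0.36 and 5.07 ± 0.35. In 2DG_1mM against Suc_25mM, 10 were higher and 1 lower (against 21.4% higher and 28.0% lower over all genes, median 1.13). AT5G14730 was higher by 3.61 ± 0.35, and AT12CYS-2 was the one that was lower, at -1.55 ± 0.35. The all-gene medians of these comparisons are those given with the members.

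Among 13 known regulators of AOX1A, 8 of 12 tested were higher in Col than in fls2 at 2 h and 1 lower (against 18.7% higher and 16.1% lower over all genes, median 0.91), 7 and 2 at 10 h (against 24.9% higher and 26.4% lower over all genes, median 0.64) and 6 and 0 at 24 h (against 11.0% higher and 7.59% lower over all genes, median 0.43). ANAC017 was higher in Col by 0.65 ± 0.14 at 2 h, 1.07 ± 0.16 at 10 h and 0.70 ± 0.14 at 24 h. WRKY40, a repressor of AOX1A and OM66, was higher by 4.40 ± 0.47 at 2 h, and WRKY63, an activator of AOX1A, by 4.21 ± 0.31 at 10 h. WRKY15 was higher by 2.84 ± 0.21 at 2 h. The repressor WRKY40 and the activator WRKY63 were thus each higher in Col in the comparison given, at 2 h and at 10 h, from separate fits.

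Against Suc_0mM, 5 of 11 tested regulators rose with 2DG and 0 fell (against 21.3% higher and 27.9% lower over all genes, median 1.09), and 1 rose and 0 fell with Suc_25mM (against 6.41% higher and 6.08% lower over all genes, median -0.09). WRKY63 stood at 429 ± 61.1 CPM in 2DG_1mM, 5.12 ± 3.20 in Suc_25mM and 0.854 ± 0.459 in Suc_0mM, and rose by 8.95 ± 0.58 with 2DG. RCD1, a protein that binds ANAC013 and ANAC017, rose by 2.02 ± 0.19 with 2DG. ANAC013 rose by 1.92 ± 0.30, and for ANAC017 the difference was 0.18 ± 0.24, adjusted p = 0.563. In stp1/4/13 against Col at 10 h, WRKY63 was lower, at -1.1 ± 0.24 and WRKY40 at -1.04 ± 0.24, with 2 of 12 lower and 0 higher (against 7.67% higher and 4.84% lower over all genes, median -0.05). Against fls2, 6 were higher and 1 lower in stp1/4/13 at 2 h, 7 and 2 at 10 h, and 2 and 1 at 24 h, with medians of 0.82, 0.93 and 0.35. Over all genes 15.8%, 26.9% and 11.5% were higher and 9.82%, 25.3% and 8.39% lower.

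The phosphorylating respiratory chain, whose cytochrome pathway competes with alternative oxidase for ubiquinol, was followed by 24 nuclear genes of complexes I to V and cytochrome c. Against Suc_0mM, 16 of 24 rose with 2DG and 1 fell (against 21.3% higher and 27.9% lower over all genes, median 0.75), and 7 rose and 0 fell with Suc_25mM (against 6.41% higher and 6.08% lower over all genes, median 0.57). The cytochrome c gene CYTC-1 rose by 1.59 ± 0.18 with 2DG and 1.08 ± 0.17 with sucrose, and NDUFS8.2, a complex I subunit, by 2.02 ± 0.26 with 2DG. SDH1-1, the flavoprotein of complex II, rose by 1.77 ± 0.23 with 2DG. In Col against fls2, 3, 3 and 2 of 24 were higher at 2, 10 and 24 h and 0, 0 and 0 lower (medians 0.04, 0.10 and 0.11). Over all genes 18.7%, 24.9% and 11.0% were higher, each a larger share than in this list, and 16.1%, 26.4% and 7.59% lower. In stp1/4/13 against fls2 at 24 h, 5 of 24 were lower and 0 higher (against 11.5% higher and 8.39% lower over all genes, median -0.31), CYTC-1 at -0.70 ± 0.14 and CYTC-2 at -0.99 ± 0.18.

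Of 15 mitochondrial chaperones, proteases and antioxidant enzymes, 1 of 14 tested was higher in Col than in fls2 at 10 h and 9 lower (against 24.9% higher and 26.4% lower over all genes, median -1.06), and in stp1/4/13 0 were higher and 8 lower (against 26.9% higher and 25.3% lower over all genes, median -1.84). HSP60-2, a chaperonin, was lower, at -1.55 ± 0.17 in Col and -2.57 ± 0.18 in stp1/4/13, and MTHSC70-1, a matrix HSP70, at -1.59 ± 0.16 and -2.16 ± 0.16. The small heat shock protein gene HSP23.6 was lower, at -3.96 ± 0.37 in Col and -4.27 ± 0.38 in stp1/4/13. Against fls2 at 2 h, 0 of 15 passed either way in Col and in stp1/4/13. Over all genes 18.7% and 15.8% were higher then and 16.1% and 9.82% lower. At 24 h 0 of 15 were higher in both, with 1 lower in Col and 2 in stp1/4/13. Over all genes 11.0% and 11.5% were higher then and 7.59% and 8.39% lower. Directly against Col at 10 h, 7 of 14 were lower in stp1/4/13 and 0 higher (against 7.67% higher and 4.84% lower over all genes, median -0.48), HSP60-2 at -1.02 ± 0.18, HSP60-3A at -0.95 ± 0.16 and MTHSC70-2 at -0.79 ± 0.16. With Suc_25mM over Suc_0mM, 6 of 14 rose and 0 fell (against 6.41% higher and 6.08% lower over all genes, median 1.08), and with 2DG 5 rose and 1 fell (against 21.3% higher and 27.9% lower over all genes, median 0.21).

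Uncoupling proteins and dicarboxylate carriers of the inner membrane had 3 of 6 higher and 1 lower in Col than in fls2 at 2 h (against 18.7% higher and 16.1% lower over all genes, median 0.38). DIC2, a mitochondrial dicarboxylate carrier, was higher by 2.63 ± 0.38 at 2 h, 1.51 ± 0.20 at 10 h and 1.92 ± 0.37 at 24 h, and DIC1 by 2.35 ± 0.24 at 2 h and 1.06 ± 0.15 at 10 h. In stp1/4/13 against Col at 10 h, 2 of 5 tested were lower and 0 higher (against 7.67% higher and 4.84% lower over all genes, median -0.37). Of the 4 other type II dehydrogenases, 3 were tested. At 10 h 2 were lower in Col than in fls2 and 0 higher (against 24.9% higher and 26.4% lower over all genes, median -1.03). NDB4 stood at 14.5 ± 10.3 CPM in fls2 at 10 h, with 447 counts over its 3 libraries, against 2 counts over those of Col and 4 over those of stp1/4/13. AT3G50940, the tandem neighbour of OM66, had at most 11 counts in a library and was not tested.

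**Figure D4:**
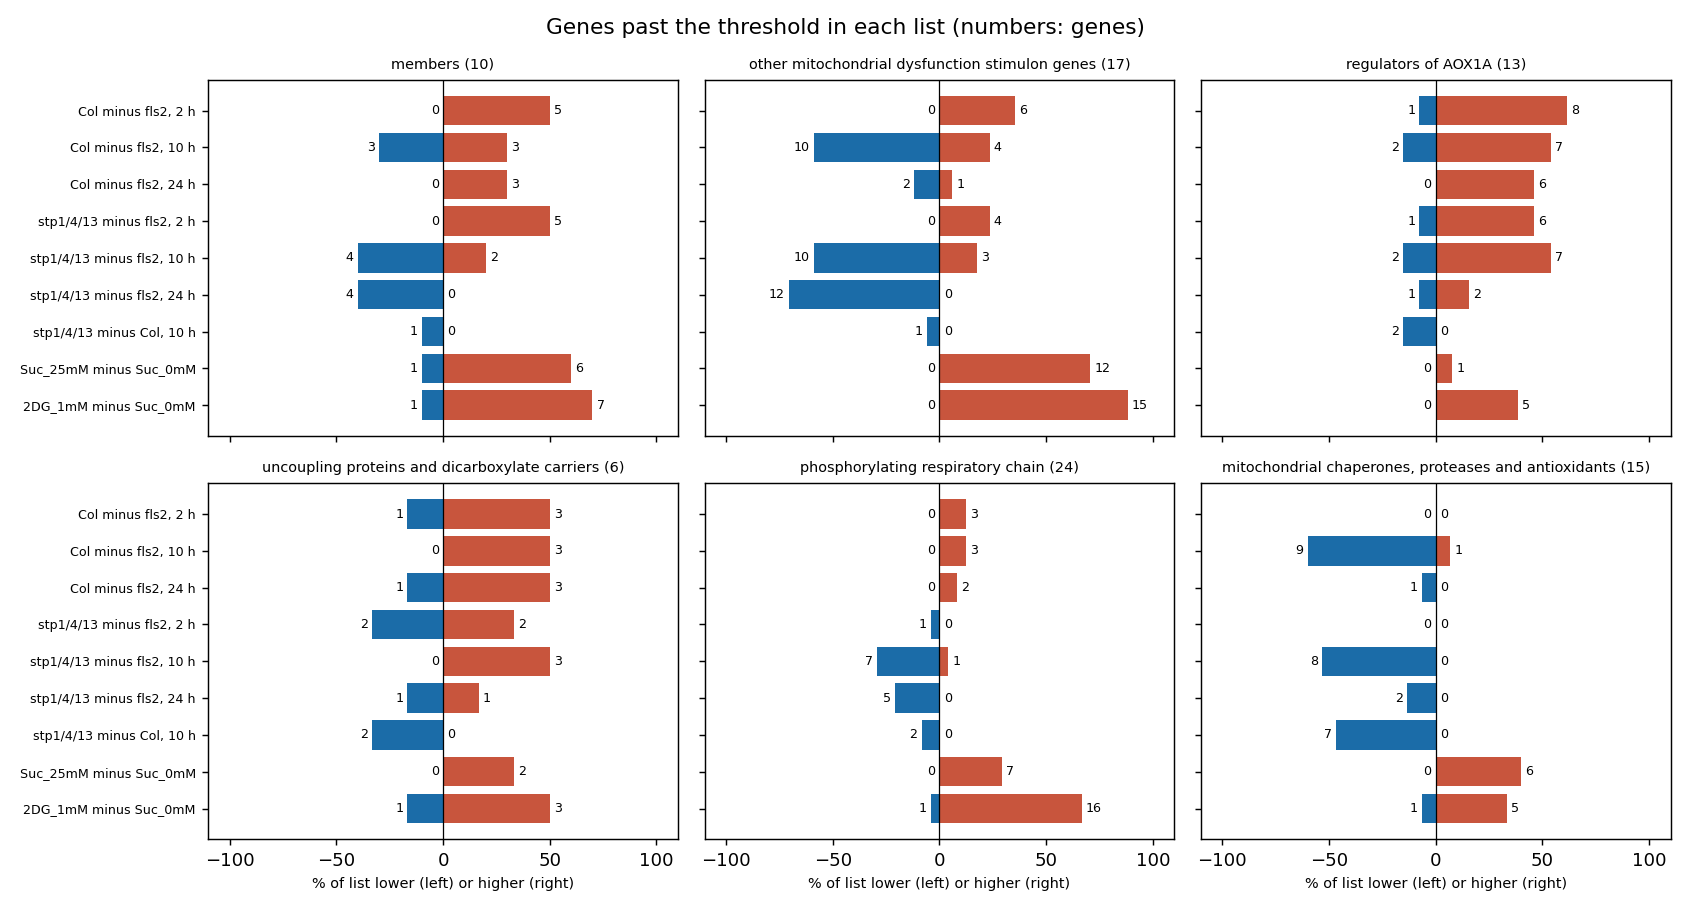
Share of each gene list that was lower (left, blue) or higher (right, red) past an adjusted p of 0.05 in 9 comparisons, with the number of genes beside each bar. Shares are of all genes of the list, tested or not. The shares over all genes are not drawn and are given in the text for each comparison. The members and the 17 other stimulon genes lie to the right at 2 h and in both sugar comparisons, and to the left in stp1/4/13 against fls2 at 24 h.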

How the data were processed

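RNA of whole seedlings was read as strand-specific 3′ tags, and per the submitters' processing notes the tools named are fastp 0.19.7, STAR 2.6.1b and featureCounts 1.6.0, with TAIR10 as build. Whether counting used the strand is not given in the sources used here. The deposited values are raw counts per locus by the authors, in 2 tables, and a count carries no correction for length or PCR duplicates, so levels are compared between groups and not between genes. CPM was computed from TMM library sizes, scaled separately for 2 h and 24 h, for 10 h and for sucrose and 2DG. Groups came from the sample titles.

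From these counts, differences were tested in R 4.3.3 with edgeR 4.0.16 (limma 3.58.1), in separate fits of 18 libraries (2 h and 24 h), 9 (10 h) and 9 (sucrose and 2DG). Low counts were filtered with filterByExpr, TMM scaling was used, the quasi-likelihood test was applied, and p-values were adjusted by Benjamini-Hochberg over all genes tested, with a threshold of 0.05. The script was tested on simulated data. Intervals of count ratios are exact 95% intervals and cover counting error only. Alternatives were DESeq2 1.42.0, RLE size factors, no filter, a filter of 1 CPM in 3 libraries, a replicate block, only the compared groups, leaving out each library, and groups from the treatment label. Stretches of promoters were read from the RefSeq genome.

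The members and the gene lists were chosen with earlier results of these data known. All members are named, and from each list up to 3 genes per comparison, those past the threshold with the largest absolute log2 fold changes. ANAC017 in each of its comparisons, CYP81D8 and TIM17-1 at 10 h, AT12CYS-2 in 2DG_1mM minus Suc_25mM and CYTC-1 in 2DG_1mM minus Suc_0mM were named outside that rule, after their values were seen. Genes most like AOX1A were the 5 with the highest correlation over 12 group means among genes with a RefSeq symbol and a mean log2 CPM of at least 3 in both tables.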

Additional observations from a re-analysis of the deposited data

Results flagged for a closer look

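For NDB2 and NDA2 the difference between Col and fls2 was not the same at 2 h and at 24 h, by edgeR's test of the interaction with adjustment over all genes. The change in log2 fold change was -1.72 for NDB2, from 1.67 to -0.05, and -1.61 for NDA2, from 2.71 to 1.1, and both passed in every alternative that was run for this comparison. It was -1.05 for AOX1A, from 1.36 at 2 h to 0.32 at 24 h. The Col levels of AOX1A at these times were among the values that chose the genes, so its change is a description and supports nothing. Root markers changed downward in the same interaction for 7 of 8 genes (median -2.11) and green tissue markers upward for 5 of 8 (median 1.48), and their part was not tested.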

How the results depend on the processing

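All 102 member values from a test stayed on their side of the threshold under RLE size factors and under the stricter filter. With DESeq2 98 of them did, with no filter 97, and when only the compared groups were fitted 92 of the 98 that were still tested. The rest of the 102 were left out by the low-count filter in those smaller fits. Leaving out 1 library at a time kept 624 values, brought 10 past the threshold and took 32 below it. Fitting only the compared groups gave 2090 genes called for Col minus fls2 at 24 h, against 3984. For stp1/4/13 minus Col at 10 h, the number of members called, 1, became 2 with DESeq2, 4 with no filter, 2 with the replicate block and 3 with only the compared groups. With 1 library left out it was 1 to 2, and the genes called, 2447, were 1307 to 1708. For fls2 at 24 h minus 2 h, the genes called, 4245, were 750 (without the 24 h replicate 1) to 5431, and the members called, 4, were 2 to 4. For Suc_25mM minus Suc_0mM, the genes called, 2463, were 1277 (without Suc_25mM replicate 1) to 2214, and the members called, 7, were 3 to 6. NDA1 at 2 h in Col minus fls2 also passed with DESeq2 (adjusted p = 0.0293), no filter (0.0478) and only the compared groups (0.00192). UPOX in stp1/4/13 minus fls2 at 2 h passed with only the compared groups (0.0314). So did NDB2 in 2DG_1mM minus Suc_25mM (0.0245), and NDA2 in fls2 at 24 h minus 2 h then missed it (0.0718). AOX1A in stp1/4/13 minus fls2 at 10 h passed with no filter (0.00664), UPOX in stp1/4/13 minus Col at 10 h with no filter (0.0093) or DESeq2 (0.0194), and AOX1D in the interaction with DESeq2 (0.0436), while AOX1D in Suc_25mM minus Suc_0mM missed it with DESeq2 (0.0536). The cause of these shifts was not tested.

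With groups from the treatment label, 2DG_1mM minus Suc_0mM gave 2463 genes called in place of 9697 and Suc_25mM minus Suc_0mM 9697 in place of 2463, since the groups exchange places. For 2DG_1mM minus Suc_25mM the sign then turned for AOX1A (-1.52), AOX1D (-5.21), NDA2 (-2.0), UPOX (-2.64) and OM66 (-2.69).

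Which number stands for which trial is not stated, so the numbers were not taken to pair the libraries in the main fits. The correlation of same-numbered libraries' deviations had a median of 0.19 (0.0211 to 0.530) at 2 h and 24 h, 0.0201 (-0.0748 to 0.0722) at 10 h and 0.0327 (-0.0179 to 0.242) in the sucrose and 2DG groups. Between libraries of different numbers the medians were -0.076, -0.00166 and -0.0195. As a hint from the data, 18 of 18, 5 of 9 and 8 of 9 libraries correlated best with their own number. At 2 h and 24 h the values thus point to matching numbers, and the replicate block was run as an alternative. With the replicate block, NDA1 passed in Col minus fls2 at 2 h (-1.23, adjusted p = 0.0448) and OM66 in stp1/4/13 minus Col at 10 h (-0.67, 0.0358), and AOX1B in 2DG_1mM minus Suc_0mM (0.0897) and AOX1D in Suc_25mM minus Suc_0mM (0.0698) did not. It changed no other call of a member.

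The low-count filter kept AOX2 out of every fit that used it and AOX1C out of those at 10 h and of sucrose and 2DG. With 3 libraries per group, a difference that missed the threshold is not shown to be absent.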
